A study of Mus musculus with 15 samples.

Results

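CD4+ T cells recovered from the mesenteric lymph nodes (mLN) were compared with CD4+ T cells recovered from the spleen, among the WT samples of a T cell transfer colitis experiment. The samples were chosen by their labels alone, and 7 of the 15 samples belong here, 3 of them WT mLN (replicates 1, 2 and 4) and 4 of them WT spleen (replicates 1 to 4). The other 8 samples, 4 KO mLN and 4 KO spleen, served as a further set in which the same organ comparison could be made. The donor cells were sorted naive CD4+ T cells of C57BL/6 mice that carried floxed Prkaa1 alleles (PRKAA1fl/fl), without Cre in WT and with CD4-Cre in KO, so that the floxed alleles are common to all groups. Mice were used at 6 to 8 weeks of age, as the methods give it for the study in general. The cells were given to Rag2-/- recipients, which make no T or B cells of their own, and were sorted 6 weeks later. The RNA came from 1 experiment with 4 mice per group, and the study left out the WT mLN library of replicate 3 for its quality. RNA was made into libraries with a low-input kit and read as single-end reads, and the values below are raw reads per gene scaled to library size (CPM) with edgeR's TMM factors.

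The mesenteric nodes drain the intestine. Dendritic cells that arrive there from the gut wall carry antigen, retinoic acid and active TGF-beta, and T cells primed there are known for acquiring gut homing receptors such as CCR9 and the integrin chain CD103 (Itgae). T cells enter nodes from the blood through high endothelial venules, with the help of CCR7, and leave along sphingosine 1-phosphate gradients, whereas the spleen filters blood and has no such venules. In Rag2-/- hosts that receive naive CD4+ T cells, the cells expand, many become effector cells that make interferon-gamma or IL-17, and colitis follows.

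The WT libraries held 9363940 to 10815509 reads on genes, and 20831 to 28591 genes with at least 1 read, the highest of these in spleen replicate 2. Between 58.9% and 63.4% of the uniquely aligned reads lay on no gene, a share that was 58.9% to 60.7% in mLN and 60.4% to 63.4% in spleen. Multimapping reads, which were not counted on genes, made up 9.32% to 9.44% of all reads in mLN and 7.82% to 8.33% in spleen. The cells carried the T cell markers of their label. Cd4 stood at 1148, 966, 1118 and 983 CPM in spleen replicates 1 to 4 and at 1056, 1016 and 1073 CPM in mLN replicates 1, 2 and 4. The difference of Cd4 was -0.01 on the log2 scale (SE 0.09, adjusted p = 0.964), and that of Cd3e, the CD3 epsilon chain, was -0.17 (SE 0.12, adjusted p = 0.383). Samples with the same replicate number deviated together in both organs. The labels do not say whether a number marks a recipient, and values are given in the order of the replicate numbers.

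Of 14515 genes tested with edgeR's quasi-likelihood test, 1408 were higher in WT mLN and 1572 were lower at an adjusted p under 0.05, which is 9.7% and 10.8% of the genes tested. A difference of more than 1 on the log2 scale in addition was met by 184 higher genes (1.27%) and 539 lower genes (3.71%). With the replicate number as a block, 2126 genes were higher (14.6%) and 2225 lower (15.3%). With a correction of each library for exonic GC content and length, 1523 of 14497 were higher (10.5%) and 859 lower (5.93%), so that the share of higher genes among the calls rose from 47.2% to 63.9%. With block and correction together, 2596 were higher (17.9%) and 1341 lower (9.25%). The call counts leaned on single libraries. Leaving out spleen replicate 1 gave 788 higher and 1028 lower genes, spleen replicate 2 gave 934 and 1102, and mLN replicate 4 gave 890 and 1154. These fits, and each fit without 1 sample below, did not use the replicate block. RNA of sorted cells in bulk cannot tell fewer cells of a type apart from less RNA per cell, which holds for each value below.

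**Figure D1:**
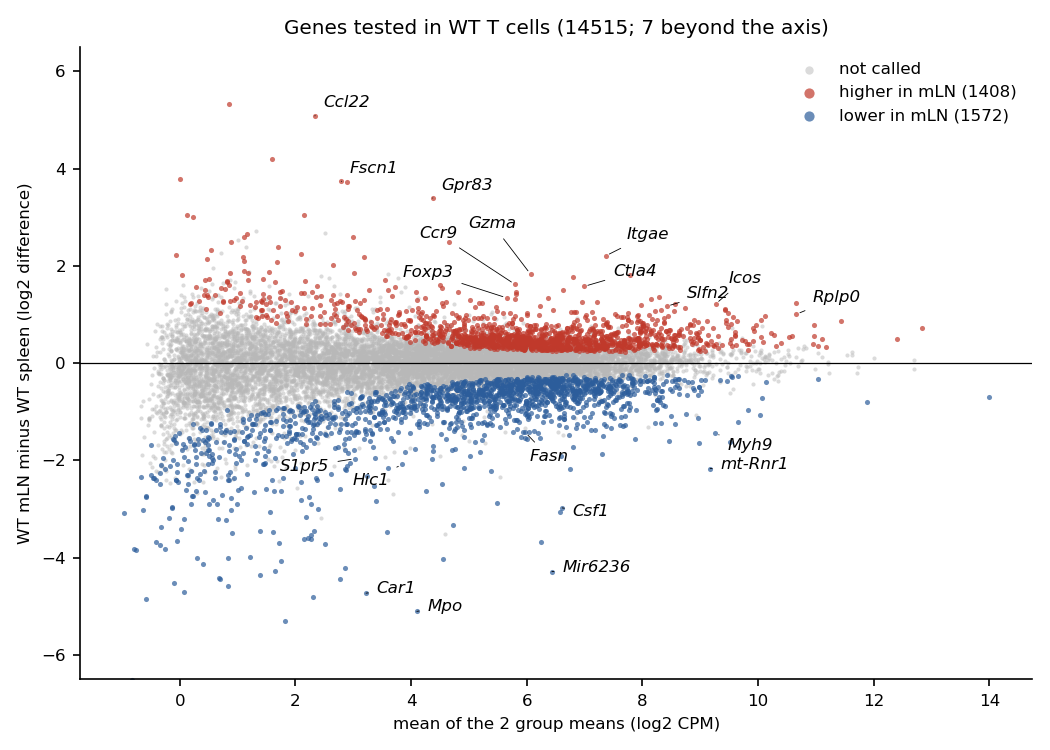
Mean level of each gene tested (log2 CPM) against its difference, WT mLN minus WT spleen (log2), with genes higher in mLN in red, lower in blue and not called in grey. The 1408 higher and 1572 lower genes spread over all levels, the largest differences sat at low levels (Ccl22, Mpo, Car1), and 7 genes lay beyond the axis.

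Among the receptors that guide T cells to the gut, Ccr9 and Itgae were higher in mLN, and the chains of the integrin alpha4beta7 were not called. Ccr9, the receptor for the small intestinal chemokine CCL25, was read at 33.1, 25.7, 13.5 and 36.8 CPM in spleen and at 93.2, 94.9 and 63.1 CPM in mLN. The groups did not overlap, and the difference of 1.62 on the log2 scale (SE 0.29, adjusted p = 0.00519) is a 3.07-fold higher level. Itgae, the CD103 chain that binds E-cadherin on epithelium, gave 43.4, 62.5, 30.2 and 98.8 CPM in spleen and 139, 461 and 212 CPM in mLN. Its difference was 2.20 (SE 0.45, adjusted p = 0.00970), 4.6-fold, with mLN replicate 2 far above the other mLN samples. Itga4 (628, 683, 610.3 and 854 CPM in spleen, 851, 629 and 869 CPM in mLN, adjusted p = 0.445) and its partner Itgb7 (1518, 1397, 1291 and 1809 CPM against 1528, 1299 and 1676 CPM, adjusted p = 0.994) overlapped between the organs.

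Of the 17 chemokine receptors tested, 2 rose and none fell, beside 9.7% and 10.8% of all genes, so that the count of higher receptors lay near the share of all genes. Their median difference was 0.21 on the log2 scale beside 2.74e-05 over all genes tested. Ccr7, which carries T cells into lymph nodes, was the other receptor that rose. It stood at 29.8, 45.8, 29.9 and 96.4 CPM in spleen and at 89.0, 264 and 164 CPM in mLN, a difference of 1.77 (SE 0.45, adjusted p = 0.0234) in which spleen replicate 4 exceeded mLN replicate 1. Its call was lost without spleen replicate 1 (adjusted p = 0.0648), spleen replicate 2 (0.0652), mLN replicate 2 (0.0904) or mLN replicate 4 (0.0535). With the replicate block and all samples, the adjusted p of Ccr7 was 0.00170. Cxcr3, the Th1 chemokine receptor, had 626, 472, 646 and 467 CPM in spleen and 787, 721 and 689 CPM in mLN. These groups did not overlap, but Cxcr3 missed the threshold (log2 difference 0.41, SE 0.13, adjusted p = 0.0574) and passed it with the replicate block (adjusted p = 0.00101). With that block, 5 chemokine receptors were higher and 1 was lower, beside 14.6% and 15.3% of all genes.

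Ccr6, the receptor for CCL20 that marks Th17 cells, read 32.5, 41.4, 21.7 and 166 CPM in spleen and 31.5, 80.4 and 185 CPM in mLN, so that replicate 4 stood highest in each organ. Gpr15, a colon homing receptor, read 2.61, 4.25, 2.41 and 17.0 CPM in spleen and 5.33, 25.7 and 11.8 CPM in mLN, with replicate 4 highest in spleen, replicate 2 highest in mLN and overlap between the organs. The organ difference was 0.60 (SE 0.72, adjusted p = 0.603) for Ccr6 and 1.11 (SE 0.71, adjusted p = 0.304) for Gpr15.

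The 21 integrins and selectin ligands tested held 2 higher and 2 lower genes, near the shares over all genes (9.7% and 10.8%). The counts were 3 higher and 5 lower with the replicate block, beside 14.6% and 15.3% of all genes. They were 2 and 1 with the GC content and length correction, beside 10.5% and 5.93%, and 8 and 3 with both, beside 17.9% and 9.25%. Besides Itgae, the higher gene was Selplg, the backbone of the P-selectin ligand, at 954, 889, 827 and 1097 CPM in spleen and 1541, 1221 and 1568 CPM in mLN (log2 difference 0.62, SE 0.12, adjusted p = 0.00853). Lower in mLN were Itgal, the alpha chain of LFA-1, at 1506, 1126, 1598 and 1087 CPM against 958, 723 and 757 CPM, and Fut7, the fucosyltransferase that completes selectin ligands, at 9.09, 8.5, 8.57 and 19.7 CPM against 3.52, 5.95 and 5.20 CPM. Itgal (log2 difference -0.71, adjusted p = 0.0158) was not called after the correction for GC content and length (adjusted p = 0.137), nor without mLN replicate 2 (0.0612) or mLN replicate 4 (0.058). Fut7 (log2 difference -1.23, adjusted p = 0.0387) lost its call without spleen replicate 1 (0.0587) or any of mLN replicates 1 (0.111), 2 (0.0644) and 4 (0.0826). With the replicate block and all samples, the adjusted p was 0.000167 for Itgal and 0.00815 for Fut7.

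Genes of egress and retention moved in both directions, with 6 higher and 3 lower of 17 tested, beside 9.7% and 10.8% of all genes. Their median was 0.49. Klf2, the factor that keeps S1pr1 transcribed, was read at 141, 251, 69.1 and 241 CPM in spleen and at 491, 389.9 and 465 CPM in mLN, a difference of 1.35 (SE 0.36, adjusted p = 0.0270). S1pr1 itself, the exit receptor, gave 253, 355, 178 and 456 CPM in spleen and 374, 291 and 471 CPM in mLN (adjusted p = 0.520). S1pr1 was not called, while Klf2 was, although the call of Klf2 was lost without spleen replicate 1 (adjusted p = 0.0772) or mLN replicates 1 (0.0734), 2 (0.0527) or 4 (0.0695). With the replicate block and all samples, the adjusted p of Klf2 was 0.00151. The retention marker Cd69 was at 348, 397, 329 and 475 CPM in spleen and 336, 612 and 442 CPM in mLN (adjusted p = 0.387).

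The receptors S1pr5 and S1pr4 went opposite ways. S1pr5, known from effector and cytotoxic lymphocytes that circulate, had 15.5, 14.3, 15.1 and 7.37 CPM in spleen and 4.56, 3.47 and 1.94 CPM in mLN, a difference of -1.97 (SE 0.35, adjusted p = 0.00533) without overlap. S1pr4 was higher (log2 difference 0.49, SE 0.12, adjusted p = 0.0218), and its call was lost without spleen replicate 1 (0.0634), mLN replicate 1 (0.0602) or mLN replicate 4 (0.0809). Rgs1, which dampens signalling of chemokine and sphingosine phosphate receptors, rose from 297, 270.2, 332 and 177 CPM in spleen to 559, 752 and 449 CPM in mLN (log2 difference 1.13, SE 0.22, adjusted p = 0.00784). P2ry10, a receptor for lysophosphatidylserine, rose as well (log2 difference 0.78, SE 0.10, adjusted p = 0.00102). The relatives of Rgs1 split, with Rgs10 higher (log2 difference 1.34, adjusted p = 0.0146, 0.0548 without mLN replicate 2) and Rgs16 lower (log2 difference -1.82, adjusted p = 0.0438, not called without any of the samples except spleen replicate 4, at up to 0.131). S1pr2, a receptor that holds cells in follicles, was lower (log2 difference -0.65, adjusted p = 0.0213). It was not called after the GC content and length correction (adjusted p = 0.173), nor without spleen replicates 1 or 2 or mLN replicates 2 or 4 (at up to 0.0685). With the replicate block and all samples, the adjusted p was 0.00402 for S1pr4, 0.00502 for Rgs10, 0.00101 for Rgs16 and 0.00966 for S1pr2.

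**Figure D2:**
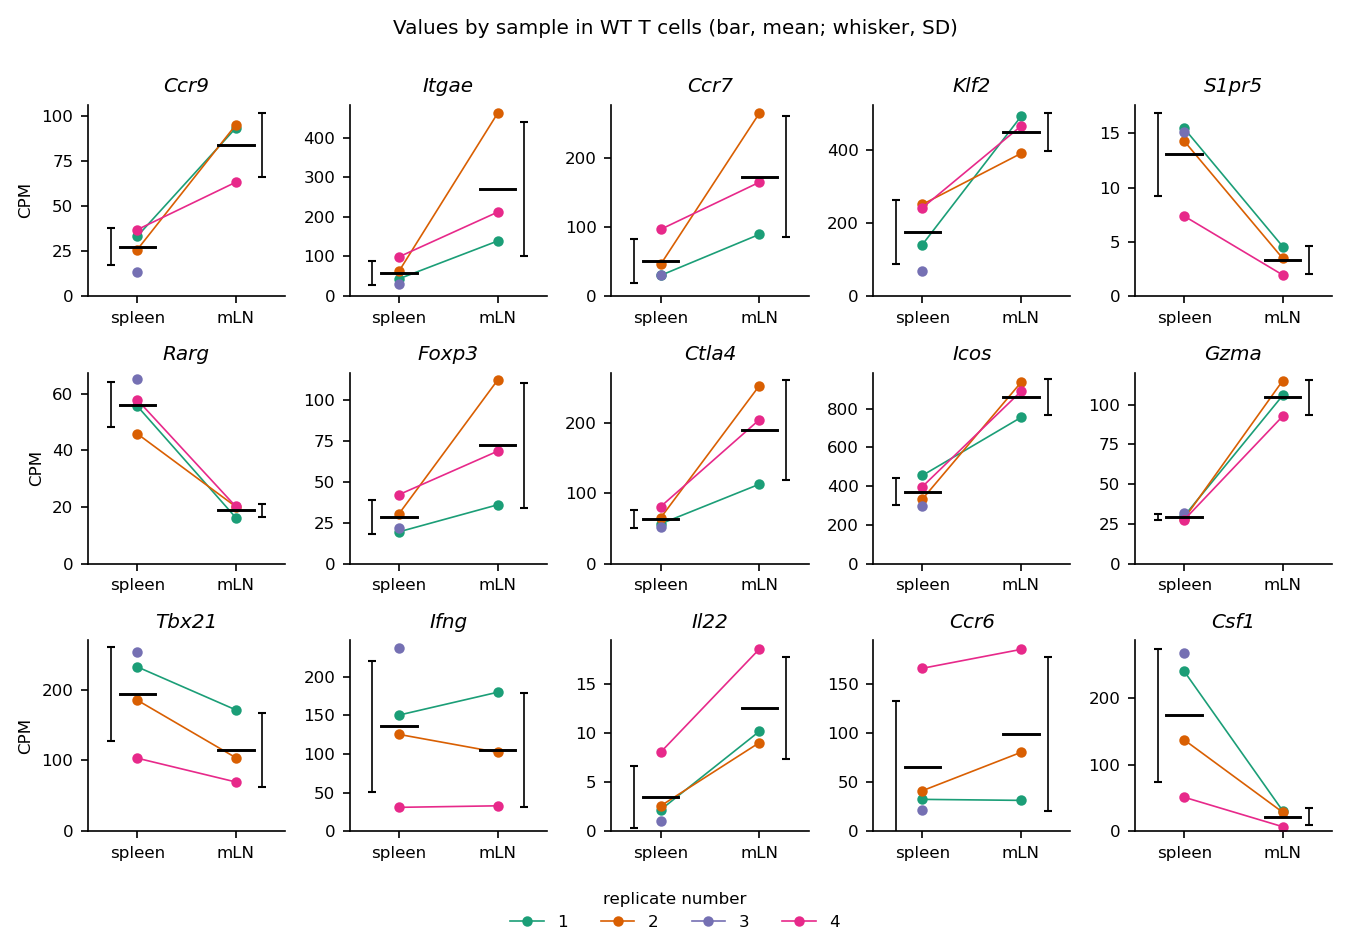
CPM of 15 genes in each WT sample, spleen at the left and mLN at the right of each panel, with lines joining samples of the same replicate number, bars at the group means and whiskers of 1 SD (spleen n = 4, mLN n = 3). The groups were apart for Ccr9, Itgae, Klf2, S1pr5, Rarg, Ctla4, Icos, Gzma, Il22 and Csf1, whereas Ifng and Ccr6 overlapped and kept the order of the replicate numbers in each organ.

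The retinoic acid pathway had 3 lower and no higher genes among 10 tested of 18 listed, with a median of -0.44, beside 10.8% of all genes lower. After the GC content and length correction 1 was higher and 2 lower, beside 10.5% and 5.93% of all genes. With block and correction together 3 were higher and 3 lower, beside 17.9% and 9.25%. Rarg, the gamma receptor for retinoic acid, fell from 55.7, 45.9, 65.1 and 57.9 CPM in spleen to 16.3, 20.1 and 20.2 CPM in mLN (log2 difference -1.57, SE 0.14, adjusted p = 0.000270). Hic1, a repressor induced by retinoic acid in intestinal T cells, gave 27.9, 21.9, 25.3 and 17.9 CPM in spleen and 5.14, 4.66 and 6.63 CPM in mLN (log2 difference -2.08, SE 0.21, adjusted p = 0.000386). Both genes were lower in the same samples in which Ccr9 was higher. Rara, the alpha receptor, was lower too (log2 difference -0.81, adjusted p = 0.0275). It was not called after the GC content and length correction (adjusted p = 0.213), nor without spleen replicates 1 or 2 or any 1 of the mLN replicates (at up to 0.0819). With the replicate block and all samples, the adjusted p of Rara was 0.00150.

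Of 19 TGF-beta pathway genes tested, 7 were higher and 3 lower, beside 9.7% and 10.8% of all genes, with a median of 0.24. The higher ones are mostly known targets or brakes of the pathway. Pmepa1, which TGF-beta induces and which limits the signal, read 1.99, 1.76, 3.27 and 2.85 CPM in spleen and 7.04, 10.9 and 12.4 CPM in mLN (log2 difference 2.03, SE 0.30, adjusted p = 0.00209). Skil, a corepressor of SMAD proteins, and Ldlrad4, an inhibitor of SMAD phosphorylation, were higher by 0.59 (adjusted p = 0.0195) and 1.0 (adjusted p = 0.0245). Skil lost its call without mLN replicate 2 (0.0715) or 4 (0.0621), and Ldlrad4 without spleen replicates 1 (0.066) or 2 (0.0675) or mLN replicates 2 (0.0884) or 4 (0.0724). Itgae, Tgif1, Smurf2 and Lrrc32 made up the rest.

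The lower members were the ligand and parts of the receptor route. Tgfb1, the ligand, fell from 39.8, 34.8, 37.0 and 32.7 CPM in spleen to 14.6, 13.9 and 8.26 CPM in mLN (log2 difference -1.55, SE 0.19, adjusted p = 0.000965). Smad3, the transducer, was lower with a log2 difference of -0.63 (SE 0.12, adjusted p = 0.00746, and 0.0594 after the GC content and length correction). Tgfbr2, a receptor chain, had a difference of -0.36 (SE 0.08, adjusted p = 0.0154, 0.346 after that correction and 0.056 without mLN replicate 2).

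Treg genes were higher in mLN, with 10 of 22 tested higher and 1 lower, beside 9.7% and 10.8% of all genes, and a median of 0.66. The summed level of the list was 1951 to 3566 CPM in mLN and 1466 to 1980 CPM in spleen. Ctla4, the inhibitory receptor of Treg and activated T cells, read 56.5, 65.2, 52.3 and 81.0 CPM in spleen and 113, 253 and 204 CPM in mLN (log2 difference 1.57, SE 0.25, adjusted p = 0.00305). Foxp3, the lineage factor, read 19.4, 30.5, 22.1 and 42.2 CPM in spleen and 35.9, 112 and 68.7 CPM in mLN. Foxp3 was 2.53-fold higher (log2 difference 1.34, SE 0.36, adjusted p = 0.0300), with mLN replicate 1 below spleen replicate 4 and with each mLN sample above the spleen sample of its number. The Foxp3 call was lost without spleen replicates 1 (adjusted p = 0.0813), 2 (0.0669) or 3 (0.062) or mLN replicates 2 (0.118) or 4 (0.0652), whereas the Ctla4 call was kept in each of these fits.

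The other Treg genes that rose belong to the cell surface or are relatives of Ikaros. Nt5e, the ectoenzyme CD73 that makes adenosine, rose from 74.4, 85.1, 54.9 and 135 CPM to 173, 234 and 219 CPM (log2 difference 1.26, SE 0.25, adjusted p = 0.00922). Ikzf4, which encodes Eos, a partner of Foxp3, rose from 9.09, 9.85, 10.1 and 13.8 CPM to 17.4, 41.4 and 21.9 CPM (log2 difference 1.33, SE 0.29, adjusted p = 0.0122). Tnfrsf18 (GITR) rose by a log2 difference of 0.73 (SE 0.13, adjusted p = 0.00566). These 3 calls were kept without any 1 of the samples. Gpr83, a Treg receptor, had the widest difference of the list (log2 difference 3.39, SE 0.83, adjusted p = 0.0202). It read 1.04, 7.88, 1.54 and 3.93 CPM in spleen and 14.2, 88.7 and 10.6 CPM in mLN, without overlap. Its call was lost without mLN replicate 2 (log2 difference 1.78, adjusted p = 0.0961) or spleen replicate 1 (3.09, adjusted p = 0.0571). With the replicate block and all samples, the adjusted p of Gpr83 was 0.000542. In KO its log2 difference was 4.03 (adjusted p = 0.00512).

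Il2ra (adjusted p = 0.0438), Tnfrsf4 (OX40, 0.0242), Izumo1r (folate receptor 4, 0.0329) and Lrrc32 (GARP, the anchor of latent TGF-beta, 0.0479) were the remaining Treg genes that rose. Izumo1r and Lrrc32 were named after their values were seen. Each of these 4 lost its call without spleen replicate 1 or 2 or mLN replicate 2 or 4, and Il2ra, Izumo1r and Lrrc32 also without spleen replicate 3, at up to 0.219 for Lrrc32 without mLN replicate 2. The member that fell was Tgfb1. Il10, a Treg and effector cytokine, did not differ beyond the spread (3.24, 18.1, 11.4 and 6.00 CPM in spleen, 3.23, 12.4 and 5.20 CPM in mLN, adjusted p = 0.610).

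Tfh genes gave 3 higher and none lower of 20 tested, with a median of 0.23, beside 9.7% and 10.8% of all genes. With the replicate block 7 were higher and 3 lower, beside 14.6% and 15.3%. Icos, the costimulatory receptor, rose from 455, 333, 298 and 397 CPM in spleen to 754, 935 and 889 CPM in mLN (log2 difference 1.21, SE 0.15, adjusted p = 0.000797). Slamf6 (log2 difference 1.07, adjusted p = 0.0298) and Id3 (0.94, adjusted p = 0.0321) rose as well. Both calls were lost without spleen replicates 1, 2 or 3 or mLN replicates 2 or 4, at up to 0.118. With the replicate block and all samples, the adjusted p was 0.000322 for Slamf6 and 0.0169 for Id3. Bcl6, the Tfh factor, was low in both organs (8.78, 4.87, 6.65 and 7.28 CPM in spleen, 9.80, 5.65 and 4.90 CPM in mLN, adjusted p = 0.969), and Cxcr5, the follicle homing receptor, had 19.0, 30.8, 18.9 and 38.3 CPM against 25.9, 38.2 and 28.9 CPM (adjusted p = 0.612). The exhaustion and Tfh receptor Pdcd1 was not called (log2 difference -0.51, adjusted p = 0.147).

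Of 23 naive and central memory genes tested, 4 were higher and 1 lower, beside 9.7% and 10.8% of all genes, with a median of 0.46. With the replicate block 11 were higher and 1 lower, beside 14.6% and 15.3%. Ccr7, Klf2, Id3 and Lef1 were the higher ones. Lef1, a factor of naive and memory cells, read 157, 187, 151 and 261 CPM in spleen and 285, 267 and 372 CPM in mLN (log2 difference 0.70, SE 0.19, adjusted p = 0.0313, up to 0.111 without 1 sample, here mLN replicate 4, and also lost without spleen replicates 1, 2 or 3 or mLN replicate 1). Its relative Tcf7 had 312, 372, 299 and 399 CPM against 442, 419 and 462 CPM, and Il7r, the receptor for the survival cytokine IL-7, had 721, 959, 395 and 1090.4 CPM against 1153, 1430.0 and 1457 CPM. Neither Tcf7 (adjusted p = 0.0534) nor Il7r (adjusted p = 0.0834) passed the threshold, and with the replicate block each did (0.0203 and 0.000439). Ikzf1, which encodes Ikaros, was the lower gene (log2 difference -0.36, adjusted p = 0.0181). Its call was lost after the GC content and length correction (0.0639) and without spleen replicate 1 (0.0516) or mLN replicates 2 (0.066) or 4 (0.0596). With the replicate block and all samples, the adjusted p was 0.000684 for Lef1 and 0.00212 for Ikzf1.

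Tbx21 and Gata3, factors of the Th1 and Th2 lineages, were not called between the organs. Th1 genes had 1 higher and 1 lower of 22 tested (median -0.18), Th17 genes 1 and 1 of 21 (0.13) and Th2 genes none of 10 (0.06). At the same threshold, 9.7% of all genes were higher and 10.8% lower. Tbx21, the Th1 factor T-bet, read 232, 185, 253 and 103 CPM in spleen and 171, 104 and 69.6 CPM in mLN. Each mLN sample lay below the spleen sample of its number, so that Tbx21 was not called as groups (log2 difference -0.75, SE 0.34, adjusted p = 0.154) and was called lower with the replicate block (adjusted p = 0.000964). Ifng, the Th1 cytokine, went with the replicate number, at 150.4, 125, 237 and 31.0 CPM in spleen and 179.9, 102 and 32.9 CPM in mLN (log2 difference -0.37, SE 0.63, adjusted p = 0.721). With the replicate block, 5 Th1 genes were higher and 4 lower, and 6 Th17 genes were higher and 3 lower, beside 14.6% and 15.3% of all genes.

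The called Th1 genes were receptors. Ifngr1, a chain of the interferon-gamma receptor, was higher (log2 difference 0.53, SE 0.09, adjusted p = 0.00381), and Il12rb1, the chain shared by the IL-12 and IL-23 receptors, was lower, at 163, 161, 222 and 98.4 CPM in spleen and 85.6, 94.0 and 65.9 CPM in mLN (log2 difference -0.98, SE 0.24, adjusted p = 0.0205). The Il12rb1 call was lost after the GC content and length correction (0.0821) and without spleen replicate 1 (0.0506) or mLN replicates 1 (0.0539) or 4 (0.0725). With the replicate block and all samples, the adjusted p of Il12rb1 was 0.000258.

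Among Th17 genes, the cytokine gene Il17a was low everywhere, at 0.836, 0.104, 0.193 and 2.26 CPM in spleen and 1.24, 0.992 and 3.06 CPM in mLN (adjusted p = 0.403). Replicate 4 was the highest of its organ for Il17a and Ccr6 and the lowest for Ifng and Tbx21. Il22, a cytokine that acts on epithelium, was the higher gene, from 2.19, 2.59, 1.06 and 8.06 CPM in spleen to 10.2, 9.02 and 18.6 CPM in mLN (log2 difference 1.85, SE 0.56, adjusted p = 0.0448). Leaving out any 1 sample except spleen replicate 4 ended this call, at up to 0.144 without mLN replicate 4. With the replicate block and all samples, the adjusted p of Il22 was 0.00134. Il6st, the signal chain of the IL-6 receptor, was lower (log2 difference -0.86, adjusted p = 0.0249, up to 0.0758 without spleen replicates 2 or 3 or mLN replicates 1 or 4, and 0.0895 after the GC content and length correction). Gata3, the Th2 factor, gave 425, 297, 245 and 443 CPM in spleen and 382, 306 and 414 CPM in mLN (adjusted p = 0.868).

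Gzma, of the cytotoxic list, had the smallest p-value among the genes higher in mLN. Of 27 cytotoxic genes tested, 4 rose and 1, S1pr5, fell (median -0.04), beside 9.7% and 10.8% of all genes. With the replicate block 9 rose and 4 fell, beside 14.6% and 15.3%. Gzma, which encodes granzyme A, read 29.9, 28.3, 32.0 and 27.5 CPM in spleen and 106, 115 and 92.7 CPM in mLN. The spread within each organ was small, and the difference of 1.83 (SE 0.10, adjusted p = 5.93e-05) is a 3.55-fold higher level. Serpinb6b, an intracellular inhibitor of granule proteases, rose from 44.1, 57.3, 49.0 and 33.6 CPM to 121, 105 and 85.1 CPM (log2 difference 1.17, adjusted p = 0.00248), and Ctsw, a cathepsin of cytotoxic lymphocytes, rose by a log2 difference of 0.86 (adjusted p = 0.0106). The receptor chain Klrd1 (CD94) was the remaining gene (log2 difference 0.89, adjusted p = 0.0161, 0.0606 without mLN replicate 4).

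Of 34 cytokines and chemokines tested, 3 were higher and 2 lower, and 6 were higher and 3 lower with the replicate block. The shares over all genes were 9.7% and 10.8%, and 14.6% and 15.3% with the block, so that these counts lay near or below them. Csf1, the growth factor of macrophages, differed widely, at 239.8, 137, 267 and 51.0 CPM in spleen and 30.6, 28.5 and 6.83 CPM in mLN. It was 7.89-fold lower in mLN (log2 difference -2.98, SE 0.63, adjusted p = 0.0109), and replicate 4 was the lowest of each organ. Mif, a cytokine made by many cells, was higher (log2 difference 0.73, SE 0.10, adjusted p = 0.00128). Il1r2, the decoy receptor for IL-1, rose from 27.6, 36.2, 36.7 and 26.4 CPM to 53.7, 93.8 and 90.5 CPM (log2 difference 1.32, SE 0.20, adjusted p = 0.00261). Slfn2, a member of the Schlafen family that is needed for T cell quiescence, rose from 197, 189, 227 and 230.1 CPM to 462, 449.8 and 507 CPM (log2 difference 1.17, SE 0.10, adjusted p = 0.000189). Of 38 mitosis genes 3 were higher and none lower, and 4 were higher and 3 lower with the replicate block, near or below the shares of all genes. Mki67, a proliferation marker, was not called, at 131, 123, 138 and 92.9 CPM in spleen and 123, 88.0 and 101 CPM in mLN (adjusted p = 0.347).

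**Figure D3:**
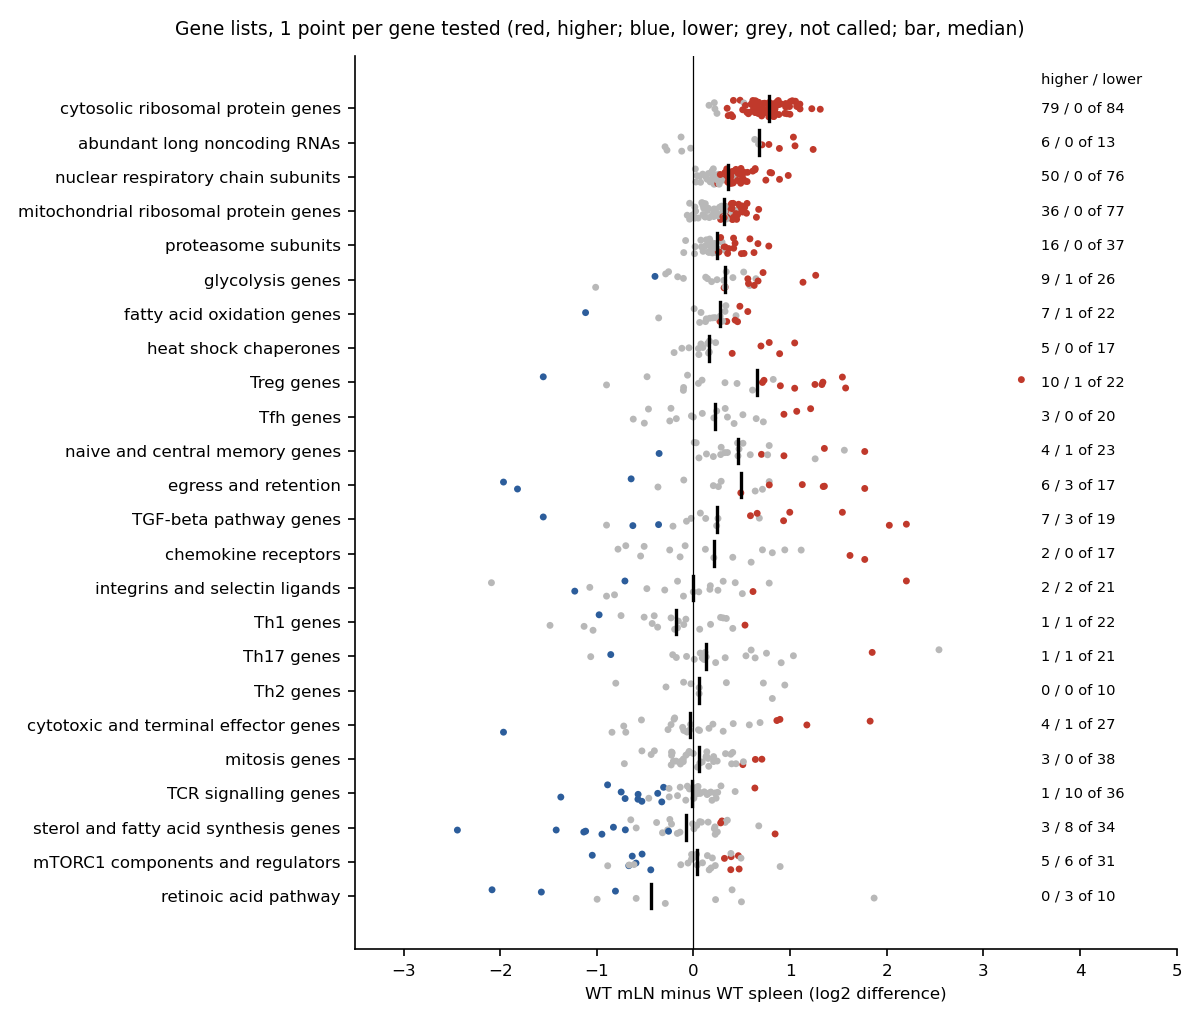
Difference of each gene tested in 24 lists, WT mLN minus WT spleen (log2), with called genes in red (higher) or blue (lower), others in grey, black bars at the list medians and the counts of higher and lower genes at the right. Cytosolic ribosomal protein genes had 79 higher of 84 and a median of 0.78, Treg genes 10 higher of 22, and TCR signalling genes 10 lower of 36. Of all genes tested, 9.7% were higher and 10.8% lower.

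Genes of the cytosolic ribosome were the most uniform group. Of 84 ribosomal protein genes tested, of 87 listed, 79 were higher in mLN and none lower, beside 9.7% of all genes tested, and the median difference was 0.78 on the log2 scale. Together these genes took 21811, 21109, 19476 and 23466 CPM in the spleen samples and 34384.5, 37564 and 40182 CPM in the mLN samples, so that the mean was 1.74-fold higher in mLN and the groups were apart. Rps26 read 164, 161, 148 and 177 CPM in spleen and 361, 407 and 444 CPM in mLN (log2 difference 1.31, SE 0.10, adjusted p = 0.000153). Rpl6 read 236, 217, 205 and 248 CPM in spleen and 497, 522 and 567 CPM in mLN (log2 difference 1.22, SE 0.09, adjusted p = 0.000153), and Rplp0, the stalk protein, was 2.0-fold higher (log2 difference 1.0, SE 0.10, adjusted p = 0.000359). Rpl3, Rps9, Fau, Rpl22l1 and Rpl37a lay between 1.02 and 1.10. The 5 genes tested and not called were Rps27rt, Rps10, Rps12, Rpl7l1 and Rpl24, with differences of 0.16 to 0.52. After the GC content and length correction 74 remained higher and none was lower (median 0.68).

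Messenger RNAs of ribosomal proteins are known to begin with a C followed by a run of pyrimidines, the terminal oligopyrimidine tract, which ties their translation to mTORC1. The window around the annotated start is printed for 6 ribosomal protein genes, because these genes carry the most uniform difference of the comparison. The 6 have the smallest p among those with an entry in the RefSeq promoter table (GRCm38.p6), where genes of a single chromosome were left out. For each gene only the first start listed was read. Capitals mark a run of a C and at least 4 further bases, each C or T, read on the sense strand, that begins within 5 bases of the annotated start. Each window holds 15 bases before the start and 15 bases from it on, 5′ to 3′.
Rps26 (chr10:128626492-128626521, minus strand): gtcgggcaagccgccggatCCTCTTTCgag
Rpl6 (chr5:121204486-121204515, plus strand): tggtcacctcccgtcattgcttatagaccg
Rpl41 (chr10:128549154-128549183, minus strand): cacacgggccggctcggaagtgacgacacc
Rps7 (chr12:28635939-28635968, minus strand): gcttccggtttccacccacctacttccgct
Rps9 (chr7:3704026-3704055, plus strand): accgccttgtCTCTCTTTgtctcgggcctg
Fau (chr19:6057932-6057961, plus strand): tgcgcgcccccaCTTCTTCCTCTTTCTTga
Such a run was found for 30 of the 63 ribosomal protein genes with an entry (47.6%), beside 18.5% of the 27025 genes in the table and 20.3% of the 9820 genes tested here that have an entry. It was present for 20.6% of the 960 other genes called higher and for 18.3% of the 1127 genes called lower. A run in this window is a description of these letters and not a mapped start of the RNA.

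The noncoding hosts of small nucleolar RNAs, whose RNAs begin with the same kind of tract, were higher too. Of 13 abundant long noncoding RNAs tested, 6 were higher and none lower, beside 9.7% and 10.8% of all genes, with a median of 0.67. Gas5 rose from 126, 160.2, 155 and 125 CPM in spleen to 275, 344 and 251 CPM in mLN (log2 difference 1.03, SE 0.13, adjusted p = 0.00120), and Zfas1 from 10.9, 16.6, 15.8 and 12 CPM to 30.6, 36.1 and 31.1 CPM (log2 difference 1.24, SE 0.17, adjusted p = 0.00151). Snhg1 (adjusted p = 0.0101) and Snhg8 (adjusted p = 0.0172) rose with them, the latter not without spleen replicate 1 (0.0513) or mLN replicate 2 (0.0661). Malat1, the most abundant nuclear RNA of the list, was not called (7330.2, 7152, 6707 and 6663 CPM in spleen, 7122, 5942 and 6046 CPM in mLN, adjusted p = 0.364).

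Genes of mitochondria and protein turnover showed smaller shifts in the same direction. The share of higher genes over all genes tested was 9.7%, and 10.5% after the GC content and length correction. Of 76 nuclear genes of the respiratory chain, 50 were higher and none lower (median 0.36), with summed levels of 12200 to 12903 CPM in mLN and 9326 to 10120 CPM in spleen. Uqcrh, a hinge protein of complex III, read 176, 155, 172 and 178 CPM in spleen and 305, 312 and 331 CPM in mLN (log2 difference 0.89, SE 0.08, adjusted p = 0.000261), and Ndufs4 of complex I rose by a log2 difference of 0.98 (SE 0.11, adjusted p = 0.000722). Of 77 mitochondrial ribosomal protein genes 36 were higher and none lower (median 0.32), among them Mrpl30 with a log2 difference of 0.67 (adjusted p = 0.00330), and 21 were higher after the GC content and length correction. Of 37 proteasome subunits 16 were higher and none lower (median 0.24), and 10 after that correction. Psmb4, a core subunit, read 109.7, 103, 111 and 104 CPM in spleen and 184, 187 and 179.8 CPM in mLN (log2 difference 0.78, SE 0.07, adjusted p = 0.000279).

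Glycolysis genes had 9 higher and 1 lower of 26 tested (median 0.33), and 17 higher and 1 lower with the replicate block. All genes tested gave 9.7% higher and 10.8% lower, and 14.6% and 15.3% with the block. Slc2a1, the glucose transporter GLUT1, rose from 54.1, 63.6, 62.5 and 58.7 CPM to 101, 90.4 and 104 CPM (log2 difference 0.72, SE 0.09, adjusted p = 0.00101), and Ldha, lactate dehydrogenase, from 814, 730.4, 759.7 and 712 CPM to 1356, 998 and 1239.6 CPM (log2 difference 0.67, SE 0.11, adjusted p = 0.00370). Hk1, a hexokinase, was the lower gene (log2 difference -0.40, adjusted p = 0.0220), and after the GC content and length correction its sign turned (0.10, adjusted p = 0.572). Fatty acid oxidation genes had 7 higher and 1 lower of 22 tested (median 0.27). Hadhb, a subunit of the trifunctional protein, was higher by 0.43 on the log2 scale (adjusted p = 0.00546), and the lower gene was Ppard, a nuclear receptor that drives the pathway, with a difference of -1.12 (SE 0.22, adjusted p = 0.00832). Heat shock chaperones had 5 higher and none lower of 17 tested. Hsp90aa1 read 91.3, 60.4, 74.0 and 69.6 CPM in spleen and 185, 137 and 136 CPM in mLN (log2 difference 1.05, SE 0.15, adjusted p = 0.00222).

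The 2 smallest p-values of all belonged to genes lower in mLN. Mir6236, annotated as a microRNA gene on chromosome 9, read 154, 168, 169 and 168 CPM in spleen and 8.18, 7.24 and 9.79 CPM in mLN, a 19.6-fold lower level (log2 difference -4.29, SE 0.12, adjusted p = 3.68e-07). The reads counted on it are of cellular RNA in a library that does not select small RNA, so they do not measure a mature microRNA. mt-Rnr1, the small ribosomal RNA of mitochondria, had 926, 859, 896 and 1092 CPM in spleen and 213, 203 and 212 CPM in mLN (log2 difference -2.17, SE 0.10, adjusted p = 2.36e-05). The mitochondrially encoded mRNAs did not follow it, with none of 8 tested called and a median of 0.02. These 2 genes were apart between the organs in KO as well (log2 differences of -3.87 and -2.25).

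Further genes lower in mLN with small p-values included Fasn, Nup210 and Myh9. Fasn, the fatty acid synthase, read 94.3, 91.9, 91.5 and 87.3 CPM in spleen and 31.8, 36 and 34.5 CPM in mLN (log2 difference -1.42, SE 0.08, adjusted p = 9.11e-05). Nup210, a nuclear pore protein, read 526, 587, 545 and 466 CPM in spleen and 185, 174 and 166 CPM in mLN (log2 difference -1.60, SE 0.10, adjusted p = 0.000104), and Myh9, the heavy chain of nonmuscle myosin, 846, 921, 955 and 844 CPM against 314, 310.2 and 357 CPM (log2 difference -1.45, SE 0.09, adjusted p = 0.000104). Ttc7, Taok2, Prex1, Atp2a3, Med12 and Ap2a1 had log2 differences of -1.52 to -1.04. The correction for GC content and length kept the calls of all of these and reduced Fasn to -0.78, Nup210 to -1.09 and Myh9 to -0.80.

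Length went with the organ difference over all genes. The median exonic length was 2642.5 bases for genes called higher, 5893.5 bases for genes called lower and 3753.5 bases for all tested, and the median GC content was 49.7%, 52.3% and 49.0%. By deciles of length, the median difference was 0.14 in the shortest genes, 0.19 in the second decile and -0.20 in the longest, and the called genes turned from 274 higher and 60 lower in the second decile to 62 higher and 355 lower in the longest. In KO the medians of these deciles were 0.12, 0.15 and -0.17. The part of length, GC content, RNA quality and library preparation in the differences was not tested.

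**Figure D4:**
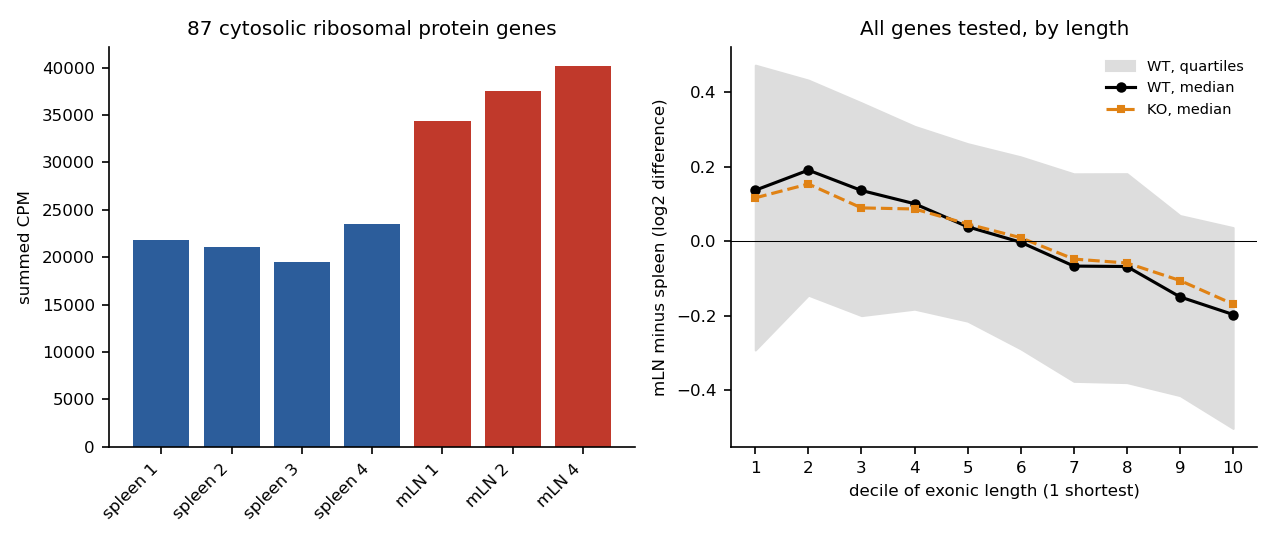
At the left, the summed CPM of 87 cytosolic ribosomal protein genes in each WT sample (spleen in blue, mLN in red); at the right, the median difference, mLN minus spleen (log2), of the genes tested by decile of exonic length, for WT (black, with quartiles in grey) and KO (orange). The 3 mLN samples stood at 34384.5 to 40182 CPM against 19476 to 23466 CPM in spleen, and the medians went from 0.14 and 0.19 in the shortest deciles to -0.20 in the longest.

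Several programs with lower members changed their count under that correction. T cell receptor signalling genes had 1 higher and 10 lower of 36 tested, and 5 higher and 5 lower after it. All genes tested gave 9.7% higher and 10.8% lower, and 10.5% and 5.93% after it. They gave 14.6% and 15.3% with the replicate block, and 17.9% and 9.25% with block and correction together. Of the signalling genes, 8 were higher and 12 lower with the replicate block. With block and correction together 15 were higher and 6 lower, with a median of 0.16, so that the balance of the calls turned with the fit. Nfatc2, a calcium-regulated factor that carries the receptor signal to the nucleus, read 219.8, 199.9, 209 and 167 CPM in spleen and 76.7, 75.3 and 78.4 CPM in mLN (log2 difference -1.37, SE 0.10, adjusted p = 0.000153, and -0.85 with adjusted p = 0.00193 after the correction). Nfatc1 (log2 difference -0.71), the ubiquitin ligase Cbl (-0.75) and the adaptor Pag1 (-0.89) were also lower and stayed called after it. Dgka, the diacylglycerol kinase that restrains the signal, was the higher gene, from 356, 428, 316 and 478 CPM to 619, 564 and 657 CPM (log2 difference 0.64, SE 0.14, adjusted p = 0.0122). Rel, the c-Rel subunit of NF-kB, fell from 99.9, 113, 129 and 85.6 CPM to 58.1, 54.8 and 48.0 CPM (log2 difference -0.99, SE 0.14, adjusted p = 0.00189).

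Sterol and fatty acid synthesis genes had 3 higher and 8 lower of 34 tested, and 2 higher and 3 lower after the correction. All genes tested gave 9.7% higher and 10.8% lower, and 10.5% and 5.93% after the correction. Besides Fasn, Srebf2, the factor that drives sterol synthesis, fell from 277, 259.7, 230.2 and 272 CPM to 143, 113 and 148 CPM (log2 difference -0.95, SE 0.12, adjusted p = 0.000875, and -0.43 with adjusted p = 0.0483 after the correction). Srebf1 (-0.71) and Scap (-0.83), its relative and the escort of both, were lower and were not called after the correction (adjusted p = 0.302 and 0.103). Mtor, the kinase of mTORC1, was at 37.9, 42.0, 37.8 and 33.0 CPM in spleen and 17.8, 19.7 and 17.1 CPM in mLN (log2 difference -1.05, SE 0.12, adjusted p = 0.000726, and -0.58 with adjusted p = 0.0105 after the correction). The mTORC1 components and regulators as a list had 5 higher and 6 lower of 31 tested, and 2 higher and 1 lower after it. Prkaa1, the kinase subunit that is floxed in these cells, was at 53.8, 48.7, 47.0 and 53.1 CPM in spleen and 50.4, 61.1 and 51.3 CPM in mLN (log2 difference 0.10, SE 0.10, adjusted p = 0.530).

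Markers of cells other than T cells differed between the organs, and their part in the values above was not tested. The shares over all genes tested were 9.7% higher and 10.8% lower in mLN. Neutrophil and promyelocyte markers were higher in spleen, with 9 of 11 tested lower in mLN and none higher, and summed levels of 318 to 951 CPM in spleen and 77.2 to 130.4 CPM in mLN. Mpo, myeloperoxidase of the primary granules, had 38.1, 47.2, 24.1 and 23.9 CPM in spleen and 0.951, 0.992 and 0.918 CPM in mLN (log2 difference -5.11, SE 0.34, adjusted p = 0.000125). Of 5 mast cell and basophil genes tested, 4 were lower in mLN, with summed levels of 36.6, 51.2, 19.0 and 46.1 CPM in spleen and 10.3, 11.2 and 6.22 CPM in mLN. Prss34, a basophil protease, had 348, 491, 25 and 518 raw counts in spleen and 0 in each mLN sample, a level at least 119-fold lower against a floor of 3 counts per library, and Mcpt8 had 112, 222, 19 and 179 raw counts in spleen and 0, 1 and 0 in mLN. Spleen replicate 3 was far below the other spleen samples for both.

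Erythroid markers differed by sample, at 199.9, 150.9, 2210 and 1089 summed CPM in spleen and 28.0, 38.6 and 869 CPM in mLN, with replicate 4 high in each organ. Of 11 tested, 2 were lower in mLN, or 8 with the replicate block, beside 10.8% and 15.3% of all genes. One of them, Car1 (carbonic anhydrase 1), had 205, 149, 191 and 169 raw counts in spleen and 0, 2 and 18 in mLN. Slc40a1, the iron exporter of macrophages that recycle red cells, read 16.5, 5.70, 11.9 and 18.1 CPM in spleen and 1.05, 0.297 and 0.408 CPM in mLN (log2 difference -4.44, SE 0.54, adjusted p = 0.000885), and Spic, the factor of these splenic macrophages, was lower as well (log2 difference -2.41, SE 0.45, adjusted p = 0.00593). The macrophage and monocyte list gave 1 higher and 2 lower of 14 tested, beside 9.7% and 10.8% of all genes. Its median difference was -0.13 on the log2 scale, with 42.9% of the genes above 0. Its summed level was 412 to 593 CPM in mLN and 271 to 439 CPM in spleen, with a mean 1.5-fold higher in mLN. Most of this sum in each mLN sample came from 1 gene, Ctss. Ctss, a lysosomal protease that antigen presenting cells of several kinds express, was the higher gene of the list. It read 136, 132, 169.7 and 177 CPM in spleen and 305, 409 and 342 CPM in mLN (log2 difference 1.19, SE 0.14, adjusted p = 0.000719).

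Ccl22, Fscn1 and Apol7c were among the genes named for the size of their difference. Ccl22, a chemokine that draws CCR4+ T cells, had 0.104, 0.725, 0.193 and 0.0983 CPM in spleen and 12.7, 11.9 and 4.79 CPM in mLN (log2 difference 5.08, SE 0.59, adjusted p = 0.000719). Fscn1, an actin-bundling protein of mature dendritic cells, had 0.940, 1.04, 0.578 and 1.28 CPM in spleen and 13.5, 16.8 and 8.46 CPM in mLN (log2 difference 3.74, SE 0.33, adjusted p = 0.000250), and Apol7c had a log2 difference of 4.20 (SE 0.60, adjusted p = 0.00189). The dendritic cell list gave 1 higher of 5 tested, which was Ccl22, and a median difference of 0.15 with 60% of the tested genes above 0. Its summed level of 32.4 to 44.1 CPM in mLN and 27.7 to 36.9 CPM in spleen overlapped. MHC class II genes had 5 higher and none lower of 10 tested, beside 9.7% and 10.8% of all genes. Their summed levels were 340.5 to 632 CPM in mLN and 277 to 492 CPM in spleen. H2-Eb1, a class II beta chain, read 10.1, 7.67, 14.5 and 12.4 CPM in spleen and 51.3, 28.5 and 22.9 CPM in mLN (log2 difference 1.61, SE 0.29, adjusted p = 0.00568).

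Of 5 B and plasma cell genes tested, 2 were higher in mLN, Ighm and Ighd, beside 9.7% of all genes. All 5 had a difference above 0, with a median of 1.31 on the log2 scale. The summed level of the list was 194 to 577 CPM in mLN and 56.2 to 196 CPM in spleen, with a mean 3.25-fold higher in mLN. Ighm, the mu heavy chain, had 47.8, 110.4, 56.1 and 173 CPM in spleen and 176, 545 and 305 CPM in mLN (log2 difference 1.82, SE 0.47, adjusted p = 0.0253, lost without spleen replicates 1, 2 or 3 or mLN replicates 2 or 4, at up to 0.0995). The Ighd call was lost without spleen replicates 1 (0.0623) or 2 (0.0602) or mLN replicate 2 (0.0931). Another listed marker, Ms4a1, was at 0 in all 3 mLN samples and in all spleen samples other than replicate 2 (0.415 CPM). Cd8a, of CD8 T cells, stood at 0.0983 to 0.674 CPM in spleen and at 5.71, 8.53 and 0.306 CPM in mLN and was too low to be tested. T cell markers as a list had summed levels of 13969 to 17177 CPM in spleen and 16656 to 17584 CPM in mLN. Of 17 tested, 3 were higher and 1 lower, and 9 were higher and 1 lower with the replicate block, beside 14.6% and 15.3% of all genes.

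**Figure D5:**
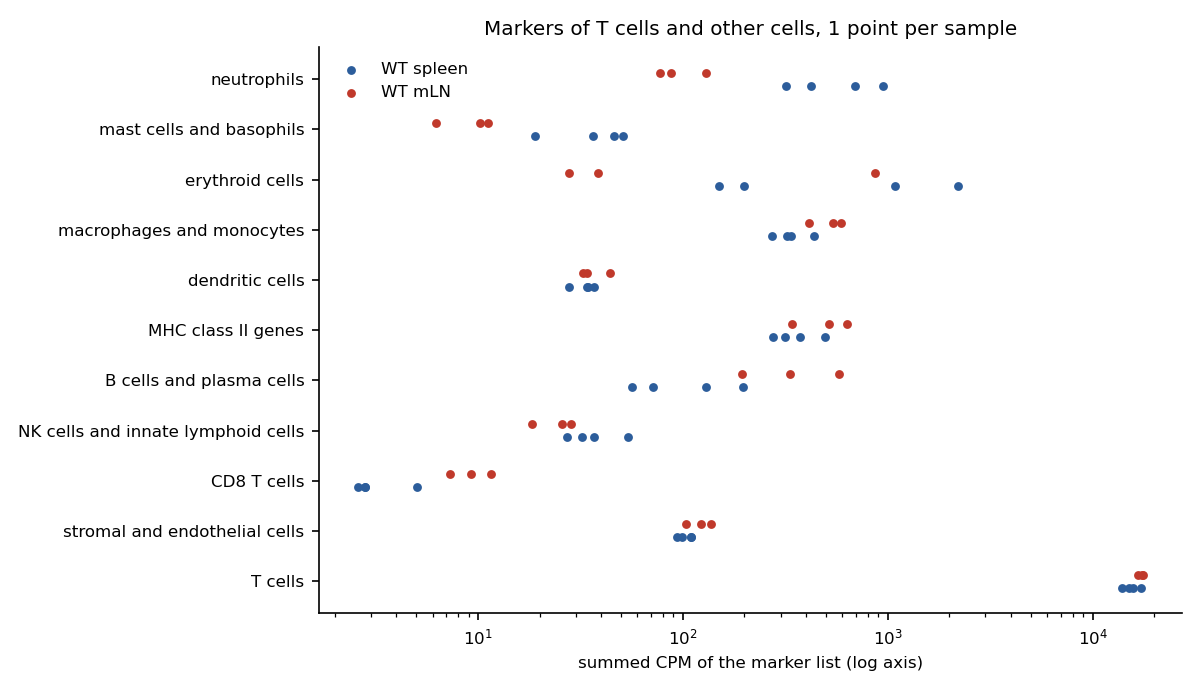
Summed CPM (log axis) of marker lists of T cells and of other cells in each WT sample, spleen in blue and mLN in red. Neutrophil, mast cell and basophil markers lay higher in all spleen samples than in all mLN samples, and CD8 T cell markers lay lower. Erythroid markers ranged from 28.0 to 2210 CPM across samples of both organs.

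The same comparison in KO cells, which shares no sample with the WT comparison, called 1626 genes higher in mLN (11.4% of 14240 tested) and 1976 lower (13.9%). Of the WT calls, 919 higher genes (65.3% of the WT and 56.5% of the KO calls) and 1143 lower genes (72.7% and 57.8%) were called in the same direction in KO, and none in the opposite direction. Ccr9 (log2 difference 2.48, adjusted p = 0.000546), Itgae (2.20, adjusted p = 0.00212), Gzma (1.04, adjusted p = 0.000383), Icos (1.28, adjusted p = 1.01e-05), Rarg (-1.66, adjusted p = 2.65e-05) and Csf1 (-2.84, adjusted p = 0.00105) were among these. Of the ribosomal protein genes 75 were higher in KO mLN (median 0.62). Of 22 Treg genes tested in KO, 10 were higher in mLN and 1 lower (median 0.60), beside 11.4% and 13.9% of all genes. Foxp3 (0.72, adjusted p = 0.227), Pmepa1 (1.21, adjusted p = 0.0613) and Il22 (0.82, adjusted p = 0.199) were not called there, while Cd69 was lower (-0.96, adjusted p = 0.00140). The test of the organ difference between the genotypes called 0 of 15438 genes (0%) with edgeR's quasi-likelihood test, with 652 at an unadjusted p under 0.05. With the replicate number of each genotype as a block, a fit that was added after the data were seen, it called 3 genes (0.0194%), Ppp1r15a, Mpo and Gm43048, which was a higher WT than KO difference for Ppp1r15a and Mpo and a lower one for Gm43048.

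Ppp1r15a, which encodes GADD34, a phosphatase subunit that reverses the stress-induced arrest of translation, had 580, 670, 629 and 436 raw counts in WT spleen and 559, 668 and 531 in WT mLN. In KO it had 863, 1042, 734 and 620 raw counts in spleen and 214 to 423 in mLN, without overlap. The organ difference was -0.01 on the log2 scale in WT (SE 0.16, adjusted p = 0.966) and -1.36 in KO (SE 0.21, adjusted p = 0.000861), and the difference between these was 1.39 with the block (SE 0.17, adjusted p = 0.0185) and 1.34 without it (SE 0.29, adjusted p = 0.825). Mpo had 365, 455, 250 and 243 raw counts in WT spleen and 10, 10 and 9 in WT mLN, and 394, 388, 772 and 458 in KO spleen and 1, 0, 0 and 0 in KO mLN, so that it was lower in mLN in both genotypes (adjusted p of the interaction 0.0270 with the block and 0.825 without it). The predicted gene Gm43048 had 102 raw counts in WT spleen replicate 4 and 0 in the other 6 WT samples, and 82, 2, 1 and 84 in KO mLN and 1, 0, 0 and 0 in KO spleen (adjusted p 0.0185 with the block and 0.935 without it). It was read well above 2 counts in 3 of the 15 samples. Ppp1r15a and Gm43048 were named after their values were seen.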

How the data were processed

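Per the labels and methods, the authors made the libraries with a low-input kit, converted the single-end reads with bcl2fastq 2.19.1.403 and aligned them to GRCm38 with STAR 2.6.1a and GENCODE annotation. RSEM and DESeq2 1.22.2 are also listed in their processing notes. The deposited counts are whole reads per gene and were used as they stand, after the rows for unmapped, multimapping, ambiguous and featureless reads were dropped (58.9% to 63.4% of uniquely aligned reads lay on no gene). The counting setting for strand is not given in the sources used here, so overlapping and antisense genes may share reads. Symbols and lengths came from GENCODE on GRCm38, in a release other than the one the study used, and start sequences from RefSeq (GRCm38.p6).

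The 7 WT samples were fitted in edgeR 4.0.16 (R 4.3.3) with filterByExpr, TMM factors and the quasi-likelihood test, with Benjamini-Hochberg adjustment over all genes tested and a threshold of 0.05. DESeq2 1.42.0, RLE and upper quartile scaling, other filters and a joint fit of all 15 samples were among the alternatives. The others were loess offsets on exonic GC content and length (span 0.3), a replicate block and fits without 1 sample. The loess term was fitted to CPM without TMM factors and added to offsets that held these factors. The KO fit and the fit of the genotype interaction with a replicate block were added after the data were seen. The scripts were tested on simulated data. P-values measure the spread between these samples of 1 experiment, and the range of reads on genes, 9363940 to 10815509, limits what low genes can show.

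Same-numbered mLN and spleen samples correlated in their deviations from the group means (r = 0.289, 0.264 and 0.337 over 14515 genes, at most 0.0223 for other pairs; 0.629, 0.622 and 0.661 over 72 T cell receptor V genes), so the numbers were taken to pair the samples. The block gives no weight to spleen replicate 3, which has no partner. The main fit and the fits without 1 sample did not use the block, so calls lost there are those of unpaired fits.

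Genes were named as the 12 with the smallest p in each direction of the genes that met both thresholds without overlap between organs (predicted genes, pseudogenes and receptor segments left out), the 6 with the largest difference under the same conditions at a mean of at least 5 CPM in the higher group, up to 4 called members of each list in each direction, and a set of lineage and homing genes whatever their values, and the text takes its examples from these. Rps7, Izumo1r, Lrrc32, Ppp1r15a and Gm43048 were named after their values were seen, as were list members named only as called or not called. The members and lists were chosen with earlier results of these data known. Some genes that this rule names are not reported here.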

Additional observations from a re-analysis of the deposited data

Results flagged for a closer look

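In 10 of the 169 genes examined, 1 of the 4 spleen samples stood apart from the rest, with a gap to its nearest neighbour above Dixon's critical value at the 95% level. Chance flags about 1 in 20 groups, and the 3 mLN samples are too few for this rule. Spleen replicate 4 held 5 of the 10, with Ccr6 at 166 CPM, Gpr15 at 17.0 CPM, Fut7 at 19.7 CPM and Id3 at 29.7 CPM above the other spleen samples, and S1pr5 at 7.37 CPM below them. Spleen replicate 1 held Hspa8 at 689.8 CPM and Ikzf1 at 635 CPM above the others and Mir6236 at 154 CPM below them. Spleen replicate 3 was above the others for Hspe1 at 49.4 CPM, and spleen replicate 2 for Ccl22 at 0.725 CPM. Over all 14515 genes tested, the share of genes in which a sample stood apart was 1.06%, 0.944%, 1.35% and 1.80% for spleen replicates 1 to 4.

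The organ difference of 3 genes differed between the genotypes in the fit with the replicate block that was added after the data were seen, with edgeR's adjusted p of 0.0185 for Ppp1r15a, 0.0185 for Gm43048 and 0.0270 for Mpo. In the fit without the block, the adjusted p of the same genes was 0.825, 0.935 and 0.825.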

How the results depend on the processing

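Of the 169 genes examined singly, 147 were called, 100 of these kept their call in each fit run, 40 lost it in a fit without 1 sample and 26 in another alternative. The count of higher genes (1408) moved to 2126 with the replicate block and 2596 with the block and the GC content and length correction together, and ranged from 788 to 1294 without 1 sample (788 without spleen replicate 1, 934 without spleen replicate 2, 890 without mLN replicate 4). The count of lower genes (1572) moved to 859 with that correction and ranged from 1028 to 1486 without 1 sample (1028 without spleen replicate 1). Past both limits, the 184 higher and 539 lower genes became 300 and 905 without a filter on low counts, and the higher ones ranged from 102 to 245 without 1 sample (102 without spleen replicate 1). The causes of these shifts were not tested.

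Hk1 was the only called gene that turned direction, to 0.10 with the correction and 0.15 with block and correction. The other turns were in genes not called, as log2 differences. With the replicate block, Ifng was 0.0153, Gata3 -0.0705 and Cd4 0.0258. With the correction, Itgb7 was 0.0896, Bcl6 0.17 and Cd4 0.0396. With block and correction, Itgb7 was 0.0264, Gata3 -0.0555, Bcl6 0.15, Cd4 0.0818 and Mki67 0.0696. Itgb7 was 0.00107 without a filter, and Itgb7 and Cd4 were 0.00794 and 0.00190 in the joint fit of 15 samples. Without 1 sample, the values ranged from -0.0893 to 0.0966 for Itgb7, -1.01 to 0.0525 for Ifng, -0.0746 to 0.19 for Gata3, -0.39 to 0.17 for Bcl6 and -0.0492 to 0.0330 for Cd4, from -0.23 (without mLN replicate 4) to 1.64 for Ccr6, and from -1.20 to 0.00980 (without spleen replicate 2) for Il10.

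In KO, the 1626 higher and 1976 lower genes became 1662 and 2152 with the replicate block, and the 0 genes whose organ difference differed between the genotypes became 3. Depth limits statements on genes near 1 CPM, and counting error is the only error that the floor of 3 counts covers.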
